A study of Papio anubis and Macaca fascicularis and Castor canadensis with 48 samples.

Results

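In the livers of 8 mammals, 45 of 16816 gene identifiers were abundant in most species and near absent in a single one. A member of this set had a mean liver level of at least 50 CPM (counts of an identifier per 1e6 counts of its library) in at least 6 species. It had a mean under 0.5 CPM in exactly 1. The liver values chose the members, so they are given below as a description with no test. Kidney and brain values played no part in the choice and were tested where the design allowed. The near-absent species was sugar glider for 19 members, beaver for 7, white-footed mouse for 7, tube-nosed bat for 6 and bear for 3. Chipmunk, baboon and long-tailed macaque had 1 member each.

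The study sequenced total RNA from organs of wild-type male adults, in 48 libraries that form 15 groups of species and organ. Baboon (Papio anubis) had 6 brains, 6 kidneys and 6 livers. Long-tailed macaque (Macaca fascicularis) had 6 cerebella, 5 kidneys and 6 livers, and beaver (Castor canadensis) had 2 brains and 2 livers. Chipmunk (Tamias sibiricus) and sugar glider (Petaurus breviceps) each had 2 livers. American black bear (Ursus americanus) had 1 kidney and 1 liver, white-footed mouse (Peromyscus leucopus) had 1 brain and 1 liver, and tube-nosed bat (Murina leucogaster) had 1 liver. No animal was treated. Per the labels, the 39 libraries of baboon, beaver and macaque came from a primate research centre, and the 9 libraries of the other 5 species from an earlier collection. Species and collection cannot be told apart for those 5. Library totals ran from 6326129 to 26801829 counts. Between 94.3% and 99.4% of the counts from 1 to 20 were even, so 2 counts were read as 1 read pair, worth 0.0746 to 0.316 CPM.

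Every row carries the Ensembl identifier (ID) of a house mouse gene, and none of the 8 species is the house mouse. The level listed for a species is that of whatever was counted there under the mouse ID. The files do not pair the IDs with gene names, so members are given by ID and their functions are not described. As background, hepatocytes make most plasma proteins and carry much of the body's intermediary metabolism. Many of their abundant transcripts are scarce in kidney and brain, whereas genes of respiration and protein synthesis are read in all of these organs. In bulk tissue, fewer cells that express a gene and less RNA per cell cannot be told apart. The labelled organs could not be checked against marker genes without names.

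The near absence was in most cases a matter of a few read pairs. Of the 45 members, 21 had 0 counts in all livers of the near-absent species, 9 had a single read pair over those livers and 15 had more. The highest sum was 24 counts, over 6 baboon livers. In the other 7 species the median of the liver means ran from 59.6 to 22010 CPM over the members, with a median of 214 CPM. All 7 other species reached 50 CPM for 23 members, and exactly 6 did for 22. For 8 members a further species lay under 10 CPM, so the contrast was not always of 1 species against 7 similar ones. The heat map of liver means shows the dark cells of each group in the column of its own species.

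**Figure D1:**
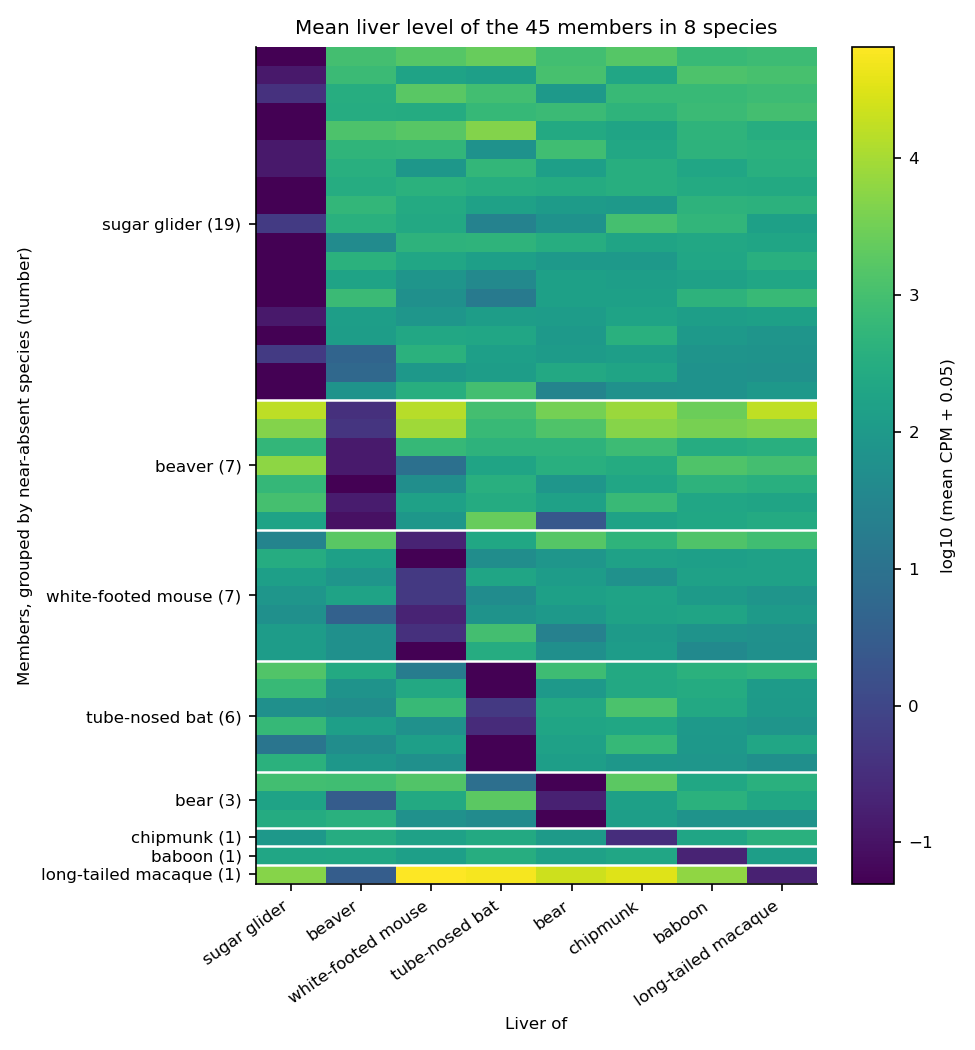
Mean liver level of the 45 members (rows, grouped by near-absent species with their number) in the livers of 8 species (columns), as log10 of the mean CPM plus 0.05. The near-absent species is the dark column in each block. A few further dim cells, such as beaver for the macaque member at 3.08 CPM, mark members with another low species.

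The set was a small part of the liver-abundant IDs. Of 1311 IDs at 50 CPM or more in at least 6 species, 1260 were under 0.5 CPM in none, 45 (3.43%) in 1 and 6 in a pair of species. The members nearest the lower limit were ENSMUSG00000079563 at 0.4997 CPM and ENSMUSG00000104043 at 0.494 CPM, both in sugar glider. Just outside it lay ENSMUSG00000064341 at 0.534 CPM in beaver and ENSMUSG00000002992 at 0.535 CPM in sugar glider. At the upper limit, the sixth highest species mean was 50.9 CPM for ENSMUSG00000030972, a member of the bat group, and 49.98 CPM for ENSMUSG00000020241, which was left out and lay lowest in white-footed mouse.

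Sugar glider, the marsupial of the series, held the most members at these limits. With 20 in place of 50 CPM as the upper limit, white-footed mouse held more, 39 against 34 in sugar glider. Among IDs at 50 CPM or more in at least 6 of the 7 other livers, 21 of 1021 (2.06%) were under 0.5 CPM in sugar glider. The same share was 0.669% in beaver (7 of 1047), 0.582% in white-footed mouse (7 of 1202), 0.563% in bat (6 of 1065), 0.492% in macaque (5 of 1017), 0.446% in bear (5 of 1120), 0.298% in chipmunk (3 of 1006) and 0.288% in baboon (3 of 1042). The liver libraries also differed in depth and number. Counts summed over a species' livers ranged from 8640749 counts in bat, with 1 liver, to 151711285 counts in baboon, with 6. The share of all 16816 IDs with 0 counts in the livers was 24.7% in sugar glider, 30.2% in white-footed mouse, 22.9% in bear, 22.4% in bat, 20.4% in beaver, 19.0% in chipmunk, 12.6% in macaque and 12.3% in baboon. The part of depth in the shares was not tested.

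The shape of the lower tail differed between sugar glider and white-footed mouse. Raising the limit from 0.5 to 5 CPM took sugar glider from 21 to 27 IDs (2.64%), and white-footed mouse from 7 to 69 IDs (5.74%). At 10 CPM, sugar glider had 28 IDs (2.74%) and white-footed mouse 140 (11.6%). Sugar glider thus had few IDs between 5 and 10 CPM and most of its low IDs under 0.5 CPM, whereas those of white-footed mouse were spread over the levels between. The white-footed mouse liver also had the lowest TMM factor of the 21 livers, 0.493, against 1.34 and 1.35 in the sugar glider livers. TMM is edgeR's scaling of library sizes to the bulk of the genes. Its part in the difference of the tails was not tested.

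**Figure D2:**
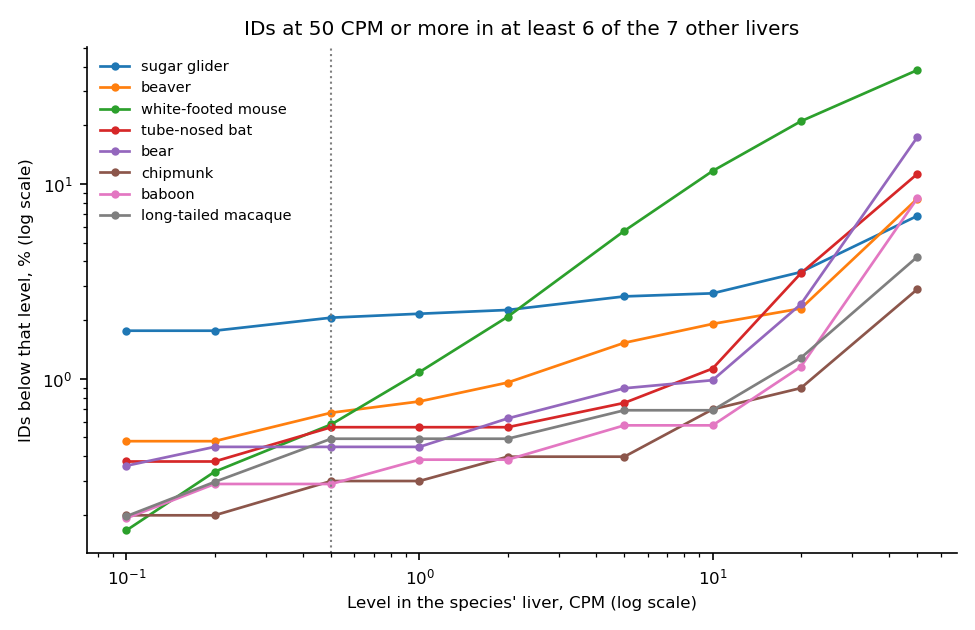
Share of IDs (vertical axis, %, log scale) below a given mean liver level (horizontal axis, CPM, log scale) in each of 8 species, among the IDs at 50 CPM or more in at least 6 of the 7 other livers. The dotted line marks 0.5 CPM, where sugar glider stood at 2.06% and the other species between 0.288% and 0.669%. The curve of white-footed mouse reached 5.74% at 5 CPM.

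For the sugar glider group only the 2 livers exist, so these members have no second organ. In 12 of 19 members both livers had 0 counts, which allows a level of up to 0.246 CPM (3 read pairs of the summed total, counting error only). The other 7 had 2 to 12 counts. ENSMUSG00000022347, the zero-count member with the highest median elsewhere, stood at 648 ± 190 CPM in baboon livers and 779 ± 207 CPM in macaque livers (SD, n = 6 each). Its single bat liver had 2412 CPM. In the same ID the baboon kidneys averaged 0.854 ± 0.330 CPM (SD, n = 6) and the baboon brains 3.38 ± 1.54 CPM (SD, n = 6), so the ID was liver-abundant rather than general.

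ENSMUSG00000037797 had 0 counts in one sugar glider liver and 2 in the other. It averaged 1278 ± 281 CPM in baboon livers and 1059 ± 538 CPM in macaque livers (SD, n = 6 each), and the lowest other species was bat at 140 CPM. It too was low in primate kidney, at 0.559 ± 0.210 CPM in baboon (SD, n = 6) and 0.418 ± 0.179 CPM in macaque (SD, n = 5), yet the single bear kidney had 211 CPM. Over all 19 members of the group, the median level was 268 CPM in baboon liver, 3.05 CPM in baboon kidney and 3.38 CPM in baboon brain. In baboon kidney 7 of the 19 were at 50 CPM or more and 4 were under 0.5 CPM, so the group held both liver-restricted and broadly counted IDs.

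The 6 members near absent in tube-nosed bat rest on 1 liver of 8640749 counts, the smallest of the summed liver totals. In 4 of them the bat had 0 counts. A count of 0 there allows up to 0.694 CPM, above the 0.5 CPM of the rule, so the depth cannot place these 4 under the limit with certainty. The same holds for ENSMUSG00000031844 (4 counts) and ENSMUSG00000059434 (2 counts). Counting error also reaches past 0.5 CPM for members close under the limit in other species. Examples are ENSMUSG00000079105 and ENSMUSG00000034109, each with 6 counts (0.468 CPM) in the single white-footed mouse liver. ENSMUSG00000069922 had 0 counts in bat and from 18.2 CPM in white-footed mouse to 1454 ± 109 CPM in sugar glider (SD, n = 2). It was also high in kidney, at 560 ± 185 CPM in baboon (SD, n = 6) and 1937 CPM in the bear kidney. ENSMUSG00000034528 likewise had 0 counts in bat, and from 68.9 ± 16.6 CPM in beaver (SD, n = 2) to 673 ± 93.3 CPM in sugar glider (SD, n = 2). The chipmunk member, ENSMUSG00000050445, had 0 counts in one liver and 12 (0.538 CPM) in the other, against 89.5 to 375 CPM in the other species, and did not meet the rule when the liver with 0 counts was left out.

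For the other 19 members an organ besides liver was sequenced in the near-absent species, and 4 fits across all IDs compared that organ between species. Each used edgeR's quasi-likelihood F test (two-sided) with Benjamini-Hochberg adjustment over all IDs tested, and a call is an adjusted p under 0.05. The labels number the samples but do not say that each came from a separate animal, so p-values measure the spread between these samples. Species differ in many IDs, and the share of all tested IDs that were called in the same direction is given beside each count. The plot of single libraries shows these members outside the liver.

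**Figure D3:**
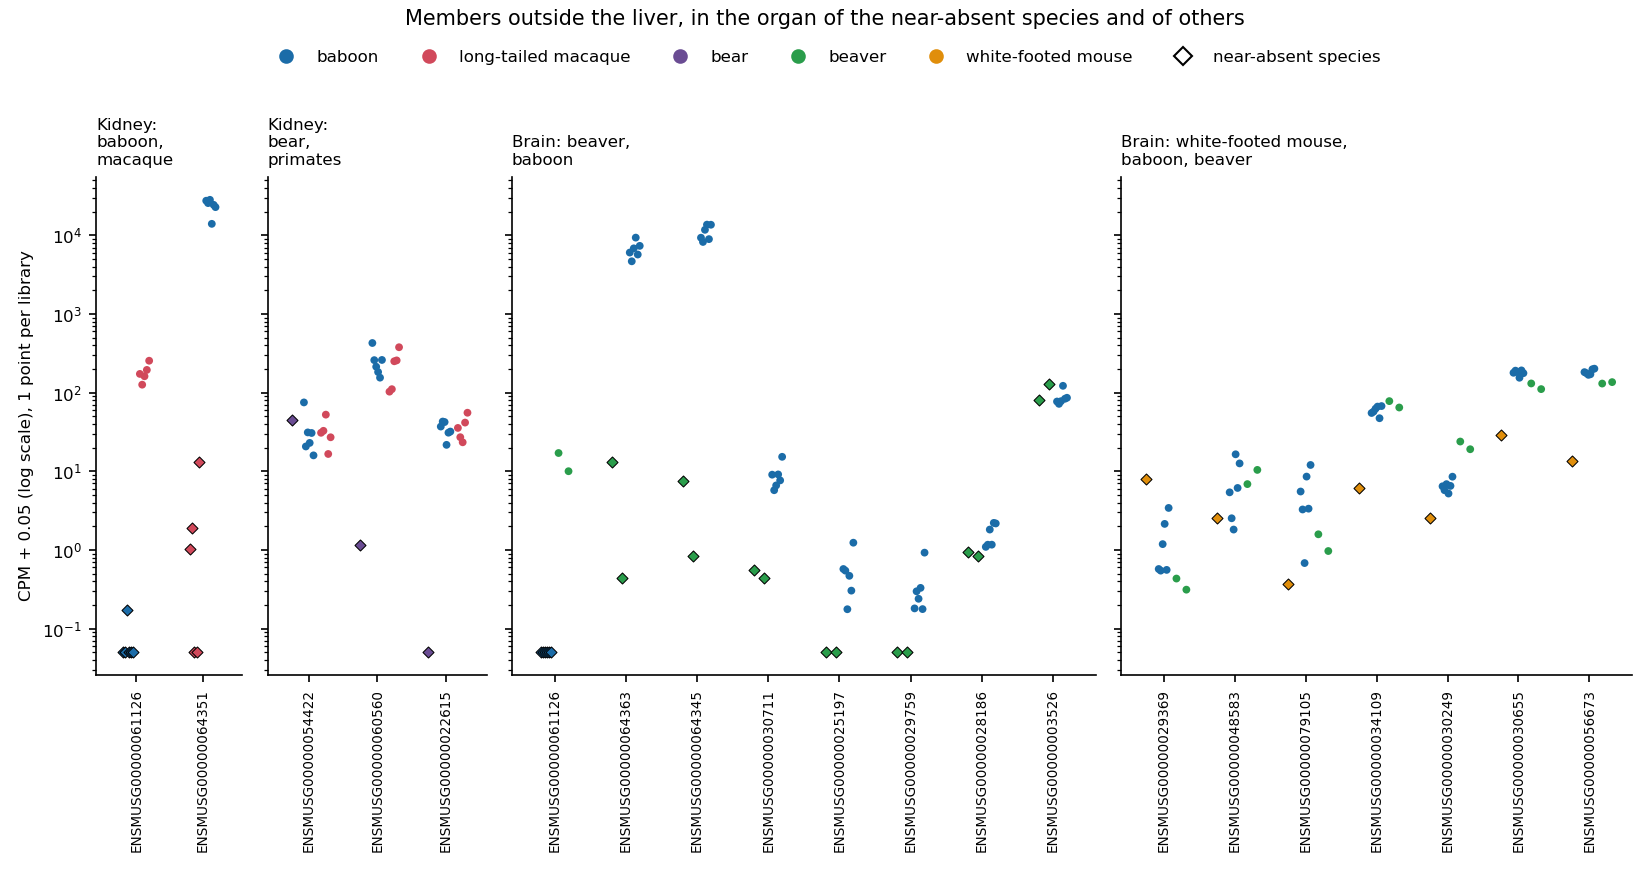
Level of 19 members outside the liver, as CPM plus 0.05 on a log scale, 1 point per library, with 1 panel per comparison. Diamonds are libraries of the species in which the liver was near absent and circles are libraries of the other species. The baboon member, listed in both a kidney and a brain panel, lies at or near 0 in every baboon library, whereas the diamonds of ENSMUSG00000003526 and ENSMUSG00000054422 lie among or next to the circles.

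The baboon member, ENSMUSG00000061126, was near absent in all 3 baboon organs. The 6 baboon livers had 6, 4, 8, 4, 0 and 2 counts (0.157 ± 0.110 CPM, SD, n = 6), while the other livers ran from 136 ± 22.7 CPM in macaque (SD, n = 6) to 326 CPM in bat. In kidney, 1 of 6 baboon libraries had 2 counts and the other 5 had 0. The 5 macaque kidneys had 173, 126, 161, 194 and 255 CPM (mean 182 ± 47.5, SD, n = 5), and the bear kidney had 69.3 CPM. The groups did not overlap. On TMM-scaled CPM the kidney level was 9856-fold lower in baboon, a value that rests on 1 read pair. Its 95% interval of 1769 to 389287 covers counting error only. The ID passed the filter on low counts only through the macaque kidneys, which fixes the direction, so no p is given. In that fit 15.6% of 13082 IDs were called lower in baboon.

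All 6 baboon brains had 0 counts of ENSMUSG00000061126, against 17.0 and 9.97 CPM in the 2 beaver brains and 19.6 CPM in the white-footed mouse brain. The level was at least 196-fold lower in baboon than in beaver brain, with the floor of 3 read pairs taken over the group. Here too it passed the filter only through the other species, so no p is given. In the brain fit 26.6% of 13955 IDs were called higher in beaver, the same direction. In macaque the ID was organ-dependent, with 0.735 to 2.12 CPM in the 6 cerebella (median 0.967).

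The macaque member, ENSMUSG00000064351, was the most abundant of the set elsewhere. It reached 6227 ± 1396 CPM in baboon liver (SD, n = 6), 5150 ± 1700 CPM in sugar glider (SD, n = 2), 22010 CPM in bear, 32224 ± 2394 CPM in chipmunk (SD, n = 2), 54339 CPM in bat and 64921 CPM in white-footed mouse. The 6 macaque livers had 2, 0, 2, 0, 8 and 6 counts. Beaver was the other low species, with 1.2 and 4.96 CPM in its livers. Macaque and beaver were thus both far below the other 6 species, with beaver above the 0.5 CPM limit.

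ENSMUSG00000064351 was also low in the macaque cerebellum and kidney. The cerebella had 6, 14, 4, 6, 0 and 2 counts (0.302 ± 0.260 CPM, SD, n = 6). The macaque kidneys numbered 1, 2, 3, 5 and 6 had 0.966, 1.84, 0, 0 and 13.1 CPM, so replicate 6 (254 counts) stood above the other 4. The 6 baboon kidneys ran from 14013 to 28310 CPM (median 25080) and the bear kidney had 75047 CPM. Kidney levels did not overlap, and the fitted difference was -12.82 ± 1.31 (macaque minus baboon, log2, SE). The ID passed the filter on low counts only through the baboon kidneys, since too few macaque kidneys reached it, so no p is given. Here 15.3% of the IDs tested were called higher in baboon, the same direction. Without macaque replicate 6 the difference was -15.01. In the brains, this ID had 14602 ± 2647 CPM in baboon (SD, n = 6) and 45 and 5.64 CPM in beaver.

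The 3 bear members behaved differently in the bear's 1 kidney. The fit set that kidney against the equal-weight mean of the baboon and macaque kidneys, and the lone library is assumed to vary like the primate ones. It called 36.1% of 14169 IDs lower and 29.6% higher in bear, and the median log2 difference over all IDs was -0.35 (-0.17 with DESeq2 size factors), the bear kidney having a TMM factor of 0.457. The values below are not centred on that median. In this 1 library, ENSMUSG00000060560 was called lower and ENSMUSG00000054422 higher, and ENSMUSG00000022615 could only come out lower because it passed the filter through the primates alone.

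ENSMUSG00000022615 had 0 counts in both the bear liver and the bear kidney. The primate kidneys averaged 34.4 ± 8.00 CPM in baboon (SD, n = 6; lowest 21.6) and 36.6 ± 12.7 CPM in macaque (SD, n = 5; lowest 23.3). The bear kidney was at least 36.7-fold lower on TMM-scaled CPM. The ID passed the filter only through the primates, which fixes the direction, so no p is given. In the other livers the level ran from 44.0 CPM in bat to 375 ± 14 CPM in beaver (SD, n = 2).

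ENSMUSG00000060560 had 2 counts in the bear liver and 16 (1.10 CPM) in the bear kidney. Baboon kidneys averaged 250 ± 96.6 CPM (SD, n = 6) and macaque kidneys 220 ± 115 CPM (SD, n = 5). The bear kidney lay below all 11 primate kidneys, by -6.5 ± 1.06 on the log2 scale (SE; edgeR, adjusted p = 0.000146). Beaver was low for this ID as well, at 2.98 ± 0.638 CPM in liver (SD, n = 2), while the bat liver had 1921 CPM.

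ENSMUSG00000054422 was absent from the bear liver and present in the bear kidney. The liver had 0 counts, which allows up to 0.401 CPM, whereas 4 of the 7 other species had liver means of 225 to 931 CPM, chipmunk and white-footed mouse had 1898 and 1448 CPM and bat had 8.33 CPM. The bear kidney had 652 counts (44.8 CPM). The baboon kidneys had a lowest value of 15.9, a median of 26.8 and a highest of 75.1 CPM, and the macaque kidneys had 30.8, 32.6, 52.5, 16.5 and 27.0 CPM, so the bear value lay within their range. After TMM scaling it was higher than the primate mean by 1.69 ± 0.60 (log2, SE; edgeR, adjusted p = 0.0243). The near absence in bear was thus seen in liver and not in kidney for this ID.

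Beaver was the only near-absent species with replicate libraries of a second organ and several members. The fit of 2 beaver brains against 6 baboon brains called 27.5% of 13955 IDs lower in beaver. Of the 7 beaver members, ENSMUSG00000064345, ENSMUSG00000028186 and ENSMUSG00000003526 had both beaver brains over the filter on low counts. ENSMUSG00000064345 was called lower and the others were not called. ENSMUSG00000064363 and ENSMUSG00000030711 passed the filter only through baboon, so they could only come out lower and are left aside. The remaining 2, ENSMUSG00000025197 and ENSMUSG00000029759, were below the filter, with 0 counts in both beaver brains and 0.50 ± 0.368 and 0.308 ± 0.284 CPM in baboon brain (SD, n = 6 each). They were counted mainly in liver, at 1349 ± 464 and 442 ± 128 CPM in baboon (SD, n = 6 each). A mean under 0.5 CPM in beaver brain was seen for 3 of the 7 members, against 74 of all 1311 liver-abundant IDs (5.64%). Members near absent in another species were also often that low in beaver brain, 9 of 38 (23.7%).

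Of these members, ENSMUSG00000064363 was abundant in every group of the other 7 species. The 2 beaver livers had 2 and 12 counts, and the other livers ran from 985 CPM in bat to 17071 ± 4854 CPM in macaque (SD, n = 6). In brain, beaver had 13 and 0.394 CPM and the 6 baboon libraries had a lowest value of 4680, a median of 6441 and a highest of 9360 CPM. The brain levels did not overlap, and the fitted difference was -10.05 ± 1.12 (beaver minus baboon, log2, SE). Without beaver brain replicate 1 the difference was -14.14. With only 1 beaver brain over the filter on low counts, the ID passed it through baboon alone, so no p is given.

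ENSMUSG00000064345 had the same pattern. Its beaver livers had 4 and 14 counts, against 660 CPM in bat to 8952 CPM in white-footed mouse. The beaver brains had 7.52 and 0.787 CPM, and the baboon brains a lowest value of 8245, a median of 10549 and a highest of 13688 CPM. The brain difference was -11.46 ± 0.89 (log2, SE; edgeR, adjusted p = 8.96e-06), and -13.87 without beaver brain replicate 1. In ENSMUSG00000064363, ENSMUSG00000064345 and the macaque member ENSMUSG00000064351 (706 and 86 counts), replicate 1 of beaver brain had more counts than replicate 2.

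These IDs were part of a wider gap among the most abundant ones. Of 48 IDs at 1000 CPM or more in at least 6 other livers, 5 were under 5 CPM in beaver and 2, the members just described, were under 0.5 CPM. The remaining 3 were ENSMUSG00000064341, ENSMUSG00000064351 and ENSMUSG00000061808, which were picked out after their values were seen. ENSMUSG00000064341 had 8.80 and 0.656 CPM in the beaver brains and 0.370 and 0.697 CPM in the livers, and ENSMUSG00000061808 had 3.06 and 2.69 CPM in the brains and 2.04 and 1.48 CPM in the livers. Macaque had 1 of 44 such IDs under 5 CPM and sugar glider 1 of 45.

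ENSMUSG00000030711, also admitted only through baboon, had 0.510 and 0.394 CPM in the beaver brains. Baboon brains had 8.86 ± 3.39 CPM (SD, n = 6, lowest 5.70), a fitted difference of -4.37 ± 0.51 (log2, SE). ENSMUSG00000028186 had 0.892 and 0.787 CPM in beaver brain and 1.55 ± 0.524 CPM in baboon brain (SD, n = 6), a difference of -0.98 ± 0.49 that was not called (edgeR, adjusted p = 0.114). Outside the brain this ID was close to liver-only, with 207 ± 36.4 CPM in baboon liver and 0.0774 ± 0.0985 CPM in baboon kidney (SD, n = 6 each).

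ENSMUSG00000003526 was the exception in beaver. The 2 livers had 0 and 2 counts, while the 2 brains had 81.5 and 129 CPM (1278 and 1961 counts). The baboon brains had a lowest value of 72.0, a median of 80.7 and a highest of 122 CPM, so the groups overlapped, and the difference was 0.17 ± 0.23 (log2, SE; edgeR, adjusted p = 0.538). The white-footed mouse brain had 124 CPM and the macaque cerebella 41.3 ± 9.97 CPM (SD, n = 6). In liver this ID varied widely within a species, from 50.5 to 573 CPM over 6 baboon livers and from 15.7 to 553 CPM over 6 macaque livers, and bear was the other low species at 2.41 CPM.

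In white-footed mouse most members had counts in brain, at lower levels than the liver-abundant IDs as a whole. The single liver had 0 to 6 counts for the 7 members, and the single brain had 2 to 182 counts, at 0.5 CPM or more for 6 of the 7. Under 0.5 CPM there were 1 of 7 members (14.3%) and 2.82% of all 1311 liver-abundant IDs, and the medians were 6.01 and 32.1 CPM. The 38 members near absent in another species were as low in this brain, with a median of 3.79 CPM and 6 (15.8%) under 0.5 CPM. The low level was thus not particular to the white-footed mouse group. That brain was the smallest library of the series (6326129 counts), and its TMM factor was 0.361. It was fitted against the equal-weight mean of the baboon and beaver brains, as a lone library assumed to vary like them. The fit called 29.8% of 14484 IDs lower and 28.4% higher in white-footed mouse, with a median log2 difference over all IDs of -0.31 (-0.11 with DESeq2 size factors). In this 1 library, ENSMUSG00000056673, ENSMUSG00000034109 and ENSMUSG00000030655 were called lower and ENSMUSG00000029369 was called higher. ENSMUSG00000030249 and ENSMUSG00000048583 were not called. ENSMUSG00000079105 passed the filter on low counts only through the other species and is left aside. When liver CPM was scaled by TMM, 3 members instead of 7 met the rule in this species.

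The member with the largest drop among those called was ENSMUSG00000056673. It had 0 counts in the white-footed mouse liver, where a count of 0 allows up to 0.468 CPM, and 84 counts (13.3 CPM) in the brain. Baboon brains averaged 183 ± 14 CPM (SD, n = 6; lowest 168) and the beaver brains had 130 and 136 CPM. The fitted difference was -1.87 ± 0.18 (log2, SE; edgeR, adjusted p = 1.12e-05), less than the ratio of the CPM values since the fit scales each library by its TMM factor. Its liver levels were modest in every species, from 40.6 ± 3.85 CPM in baboon (SD, n = 6) to 301 CPM in bat.

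ENSMUSG00000034109 had 38 counts (6.01 CPM) in the white-footed mouse brain against 59.3 ± 7.67 CPM in baboon (SD, n = 6) and 71.3 ± 9.40 CPM in beaver (SD, n = 2), a difference of -1.75 ± 0.27 (log2, SE; edgeR, adjusted p = 0.000318). ENSMUSG00000030655 had 182 counts (28.8 CPM) against 179 ± 13.4 and 121 ± 14.1 CPM in baboon and beaver (SD, n = 6 and n = 2), a difference of -0.67 ± 0.17 (log2, SE; edgeR, adjusted p = 0.00723). Differences from this fit are not centred on its median over all IDs of -0.31. With DESeq2 size factors (median -0.11) ENSMUSG00000034109 and ENSMUSG00000030655 differed by -1.55 and -0.47. Both were broadly counted IDs, with 158 ± 24.8 and 215 ± 23.4 CPM in baboon kidney (SD, n = 6 each).

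ENSMUSG00000029369 was the member that was higher in white-footed mouse brain. It had 2 counts in the liver and 50 (7.90 CPM) in the brain, above all baboon brains (lowest 0.495, median 0.828, highest 3.37 CPM) and the beaver brains (0.262 and 0.382 CPM). The difference was 5.24 ± 0.85 (log2, SE; edgeR, adjusted p = 0.000484). In the other species this ID was counted far more in liver than in brain, at 1360 ± 721 CPM in baboon liver (SD, n = 6) and 1737 ± 21.8 CPM in beaver liver (SD, n = 2), with 28.3 ± 10.6 CPM in sugar glider as the lowest (SD, n = 2).

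The remaining 3 white-footed mouse members had no call in brain. ENSMUSG00000030249 had 16 counts (2.53 CPM), against 6.5 ± 1.14 CPM in baboon (SD, n = 6) and 21.4 ± 3.41 CPM in beaver (SD, n = 2), a difference of -0.54 ± 0.37 (log2, SE; edgeR, adjusted p = 0.236). ENSMUSG00000048583 also had 16 counts (2.53 CPM), within the baboon range of 1.77 to 16.4 CPM, with a difference of 0.03 ± 1.15 (log2, SE; edgeR, adjusted p = 1.00). ENSMUSG00000079105 had 1 read pair (0.316 CPM) against 0.631 to 12 CPM in baboon and 0.918 and 1.53 CPM in beaver. Its CPM was 0.0938 of the mean of baboon and beaver, and on TMM-scaled CPM it was 3.40-fold lower. The 95% interval from counting error alone was 0.610 to 134. The ID passed the filter only through the other species, so no p is given.

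Outside the liver, members were less abundant than the liver-abundant IDs as a whole, which is a description of these libraries with no test. The 44 members that were near absent in a species other than baboon had a median of 231 CPM in baboon liver, against 116 CPM for all 1311 liver-abundant IDs. In baboon kidney the medians were 29.5 and 177 CPM, and 19 members (43.2%) were at 50 CPM or more against 84.0% of all. In baboon brain the medians were 5.83 and 101 CPM, and 12 members (27.3%) reached 50 CPM against 65.4%. Under 0.5 CPM in baboon kidney were 7 members (15.9%) and 2.44% of all. Macaque showed the same order, with medians of 34.2 and 169 CPM in kidney and 3.77 and 101 CPM in cerebellum for its own 44 members and all IDs.

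**Figure D4:**
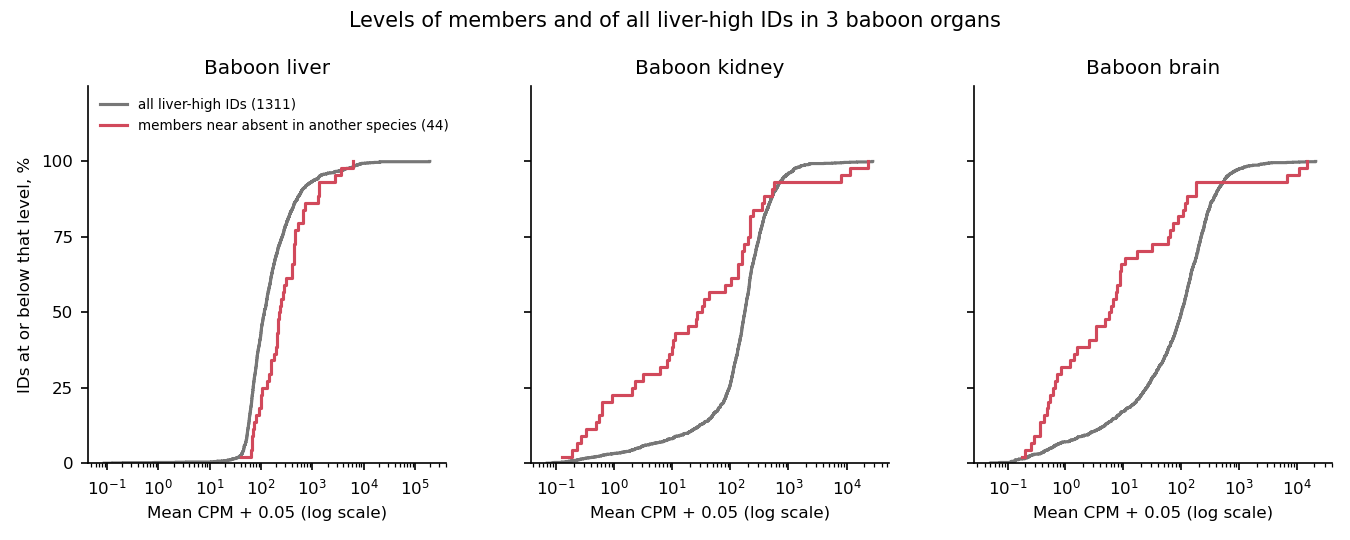
Cumulative share of IDs (vertical axis, %) at or below a mean level (horizontal axis, CPM plus 0.05, log scale) in baboon liver, kidney and brain, for all 1311 liver-abundant IDs (grey) and the 44 members near absent in another species (red). The red curve lies to the right of the grey one over most of the liver panel (medians 231 and 116 CPM) and to its left over most of the kidney and brain panels (medians 29.5 and 177, 5.83 and 101 CPM).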

How the data were processed

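The values are raw counts of reads per mouse Ensembl ID in 48 libraries, as the authors deposited them in 1 table. STAR and featureCounts were used per the submitters' processing notes. Not given in the sources used here: their settings, the genomes and annotation, and how reads of 8 species received mouse IDs. Every column matched 1 sample by its label, and 0 columns were left unused.

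CPM was computed as count over column total, and liver means were taken over the libraries of a species. The members, the comparisons and the alternatives were chosen with earlier results of these data known. Tests used edgeR 4.0.16 in R 4.3.3 on the deposited counts: filterByExpr, TMM factors, a two-sided quasi-likelihood F test and Benjamini-Hochberg adjustment over all IDs tested, with a threshold of 0.05. The SE given with an edgeR log2 difference was derived from the test, as the absolute difference over the square root of its F statistic. DESeq2 1.42.0 was an alternative. The fits were tested on simulated data. Fold limits use 3 read pairs (6 counts), and 95% intervals cover counting error only.

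The reference table given with the data paired 0 of 16816 IDs with a symbol. The planned rule named members by symbol, so it could not be applied, and the planned pathway and cell type lists, which hold symbols, were not tested. Instead all members with another organ are given by ID. Of the others, ENSMUSG00000022347, ENSMUSG00000037797, ENSMUSG00000069922, ENSMUSG00000034528, ENSMUSG00000050445, and IDs at the limits of the rule or outside the set, were chosen after their values were seen. No sequences are shown.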

Additional observations from a re-analysis of the deposited data

Results flagged for a closer look

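Among the 24 member IDs described one by one, 68 groups of 4 to 10 libraries were examined for a single library far from the rest, and 11 had one. The cutoff would flag about 1 in 20 groups of independent, normally distributed values. The CPM values were not checked for this and the same libraries recur across IDs, so no excess over chance is read from the 11.

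In kidney, ENSMUSG00000064351 had 13.1 CPM in macaque replicate 6, against 0 to 1.84 CPM in the other 4 macaque kidneys. ENSMUSG00000054422 had 75.1 CPM in baboon kidney replicate 1, against 15.9 to 31.2 CPM in the other 5.

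In baboon brain, replicate 6 stood apart for a pair of IDs: ENSMUSG00000030711 had 15.2 CPM there against 5.70 to 9.07 CPM, and ENSMUSG00000025197 had 1.19 CPM against 0.126 to 0.522 CPM. Replicate 4 had 122 CPM of ENSMUSG00000003526, against 72.0 to 86.0 CPM in the other baboon brains.

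In macaque liver, ENSMUSG00000061126 had 178 CPM in replicate 4 against 113 to 136 CPM, and ENSMUSG00000022615 had 99.4 CPM in replicate 2 against 54.2 to 70.2 CPM. Replicate 5 was high for ENSMUSG00000025197 (1276 CPM against 857 to 974) and for ENSMUSG00000034109 (112 CPM against 58.8 to 78.4), and replicate 3 for ENSMUSG00000029369 (1054 CPM against 781 to 839).

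In baboon liver, ENSMUSG00000030655 was low in replicate 3, at 45.7 CPM, against 66.5 to 75.6 CPM in the other 5. Groups with a mean under 0.5 CPM were not examined, so the near-absent livers were outside this search.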

How the results depend on the processing

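The number of members, 45, followed the limits of the rule: 108 with at least 20 CPM, 25 with at least 100 CPM and 23 when all 7 other species had to reach 50 CPM. It was 31 under 0.1 CPM, 54 under 1 CPM, 43 with TMM-scaled CPM (39 shared with the main set, 22 near absent in sugar glider) and 43 to 46 with 1 beaver, chipmunk or sugar glider liver left out. The counts of called IDs, 4046 (baboon and macaque kidney), 9307 (bear kidney), 7549 (beaver brain) and 8430 (white-footed mouse brain), ranged without single replicates from 3498 to 3858, 9191 to 9301, 5543 to 5572 and 8011 to 8013. With the replicate number as a block they were 2987, 8120, 6803 and 7877. The numbers do not pair these samples, which are of different species: same-numbered libraries correlated at -0.06 to 0.04 in kidney, where 1 of 5 correlated best with its own number, and at -0.01 and 0.15 in beaver and baboon brain. Of 134 alternative values for 18 tested member results, 131 kept their direction and side of the threshold. This is no check for the IDs that passed the filter only through the other species, since their direction was fixed. They are ENSMUSG00000061126, ENSMUSG00000022615, ENSMUSG00000030711, ENSMUSG00000064363, ENSMUSG00000064351 and ENSMUSG00000079105. With the replicate block ENSMUSG00000054422 in bear kidney was 0.94 (log2, edgeR adjusted p = 0.249). Without single beaver brain replicates, the uncalled ENSMUSG00000003526 ranged from -0.18 (without replicate 2) to 0.45, and ENSMUSG00000048583 from -0.10 (without replicate 1) to 0.18, and the cause was not tested. DESeq2 gave no adjusted p for ENSMUSG00000064351 in kidney. Bear, bat and white-footed mouse have 1 library per organ, so their liver values have no replicate check, and depth limits the bat most.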

Other observations

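The 6 IDs under 0.5 CPM in the livers of a pair of species fell into 3 pairs of species with 2 IDs each. ENSMUSG00000034892 and ENSMUSG00000055194 were near absent in baboon and macaque. ENSMUSG00000034892 had 0.0388 and 0.0990 CPM in their livers and 91.8 to 478 CPM in the other 6, and ENSMUSG00000055194 had 0.0784 and 0.322 CPM against 345 to 1809 CPM. Both were also under 1 CPM in the kidney, brain and cerebellum means of these primates, while ENSMUSG00000055194 had 1664 CPM in the bear kidney and 3141 CPM in beaver brain.

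Bear and chipmunk shared ENSMUSG00000031445 and ENSMUSG00000061947, each with 0 counts in the 3 livers of these species and in the bear kidney. The primate kidneys differed for the first of them, with a mean of 1.52 CPM in baboon and 26.9 CPM in macaque. Macaque and sugar glider shared ENSMUSG00000032081 and ENSMUSG00000060802. The latter had 0 counts in the livers of both species and in the macaque cerebella, and 0.290 CPM in macaque kidney, against 1259 CPM in baboon kidney and 289 CPM in baboon brain. These 6 IDs were not tested.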
